A study of Mus musculus with 6 samples.

Results

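The aminoacyl-tRNA synthetases of cultured mouse myoblasts are described here, together with Xpot, the nuclear exporter of tRNA. They were chosen by gene symbol: 20 cytosolic enzymes, 16 mitochondrial enzymes (symbols ending in 2) and Xpot, 37 genes in all. Of these, 36 had at least 1 probe set (a group of oligonucleotide probes for a transcript) annotated to that gene alone, of 18193 genes so covered on the array, and Dars was not analysed here. Each gene was represented by its brightest probe set, the one with the highest mean over the arrays. A filter on low signal, which left 10775 genes, kept 35 of the 36 members: all 19 cytosolic enzymes, 15 of the 16 mitochondrial ones and Xpot. The mitochondrial enzyme Mars2 lay below it.

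The cells were C2C12 myoblasts, a mouse line of skeletal muscle precursors, carrying a tetracycline-inducible construct of integrin alpha7, a laminin receptor subunit of muscle. Both groups came from this same line and were kept undifferentiated over 36 h in medium with 20% serum, chick embryo extract, penicillin, streptomycin and kanamycin: 3 samples labelled induced received 1 µg/ml tetracycline, and 3 noninduced samples received none. The question was how raised integrin alpha7 affects transcription. Each sample was hybridised to 1 array, and the series calls the 3 samples of a condition biological triplicates, so p-values measure the spread between such samples. Tetracycline was given to one group alone and no tetracycline-treated cells without the construct were analysed here, so the antibiotic and the construct cannot be told apart. The labels do not say whether the line is 1 clone.

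A synthetase joins one amino acid to its matching tRNAs, which makes the substrate of the ribosome. Cytosolic protein synthesis and protein synthesis inside mitochondria use largely separate enzymes, and all of them are encoded in the nucleus; Gars and Kars are exceptions in that 1 gene gives both forms. Several cytosolic synthetases sit in a large multisynthetase complex held together by the scaffold proteins Aimp1, Aimp2 and Eef1e1. Many cytosolic synthetase genes, and Xpot, are known as targets of ATF4, a transcription factor made when amino acids run short or unfolded protein builds up, which binds the C/EBP-ATF response element in promoters.

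On quality, the construct's own gene did not bear out the labels. Itga7 had signals of 675, 727 and 676 on the arrays labelled induced, against 811, 778 and 786 on the noninduced arrays, all 3 lower than any noninduced array (log2 fold change -0.19, limma adjusted p = 0.181). The labels give neither the species nor the extent of the construct, so this probe set may check nothing, and every direction below rests on the labels. Fluidics runs were inferred from recorded hybridisation times, a gap of over 30 min being taken to start a new run. By this rule induced replicates 2 and 3 had a run of their own, while induced replicate 1 shared a run with the 3 noninduced arrays. The noninduced arrays were all scanned first, so the order of scanning cannot be told apart from the treatment. The median signal of an array was 22.9 to 24.9 in the group labelled induced and 25.0 to 27.7 in the noninduced group. Of 6 myoblast markers 5 passed the filter (Myod1, Myf5, Des, Cdh15 and Chrna1) and Pax7 did not.

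Xpot rose on the arrays labelled induced and was the single member past the test. Each array measured a whole culture, so more cells with the transcript and more transcript per cell cannot be told apart. Its brightest probe set, 1428949_at, gave 1512, 1615 and 1527 on those arrays, against 1129, 1147 and 1240 on the noninduced arrays. Every array labelled induced lay above every noninduced one. The means were 1551 ± 55.9 on the arrays labelled induced and 1172 ± 59.8 on the noninduced arrays (SD, n = 3 each), a 1.32-fold difference. The log2 fold change, on the log2(signal + 16) scale used throughout, was 0.40 (95% interval 0.28 to 0.52, limma adjusted p = 0.0151 over 22518 probe sets). Across the array 0.2% of probe sets passed, and by brightest probe set 0.195% of genes passed as higher and 0.111% as lower.

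The other Xpot probe sets gave smaller differences. Probe set 1428772_at had 1334, 1419 and 1256 on the arrays labelled induced and 1123, 1130 and 1255 on the noninduced arrays, with a log2 fold change of 0.19 (adjusted p = 0.208 in limma). Probe set 1441682_s_at had 1338, 1374 and 1351, against 1192, 1296 and 1253 on the noninduced arrays, with 0.12 (adjusted p = 0.317 in limma). The groups did not overlap for either, and a 4th probe set lay below the filter. The mean of the tested probe sets gave 0.24 (adjusted p = 0.0776). Without induced replicate 1, induced replicate 2 or noninduced replicate 2 the adjusted p of the brightest probe set was 0.0709, 0.0798 and 0.0696, and for induced replicate 1 alone, within the first fluidics run, the log2 fold change was 0.36 (adjusted p = 0.290).

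None of the 19 cytosolic and none of the 15 mitochondrial synthetases passed the adjusted test in limma; at an unadjusted p under 0.05, 7 cytosolic genes were positive and none negative, and 1 mitochondrial gene was positive and 1 negative. Of all genes, 7.96% were positive and 7.99% negative at that cutoff, so the mitochondrial counts of 1 in 15 lie near the background. By the adjusted test 0.195% of all genes passed as higher and 0.111% as lower. The absence of synthetases past that test therefore also lies near the background. The cytosolic log2 fold changes ran from -0.15 to 0.33 with a median of 0.07, and 15 of the 19 were positive. The mitochondrial ones ran from -0.47 to 0.33 with a median of 0.01, and 8 of the 15 were positive. Over all genes tested the median was -0.01, and 47.8% were positive. For 8 of the 19 cytosolic genes all arrays labelled induced lay above all noninduced arrays, where 10.7% of all genes did so, and 2 lay wholly below, where 11.6% did. Among the 15 mitochondrial genes 2 lay wholly above and 2 wholly below. The unadjusted p in limma was under 0.01 with a positive change in 7 of the 19 cytosolic genes and 1 of the 15 mitochondrial ones, against 3.14% of all genes. None of the 34 was that far in the negative direction, where 2.5% of all genes were, so that absence lies near the background. Standard errors ran higher for the mitochondrial genes (0.066 to 0.193) than for the cytosolic ones (0.045 to 0.156). A filter at the 75th percentile kept 6 of the 15 mitochondrial and all 19 cytosolic genes. Counts by p-value are therefore not on equal terms in the 2 classes.

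**Figure D1:**
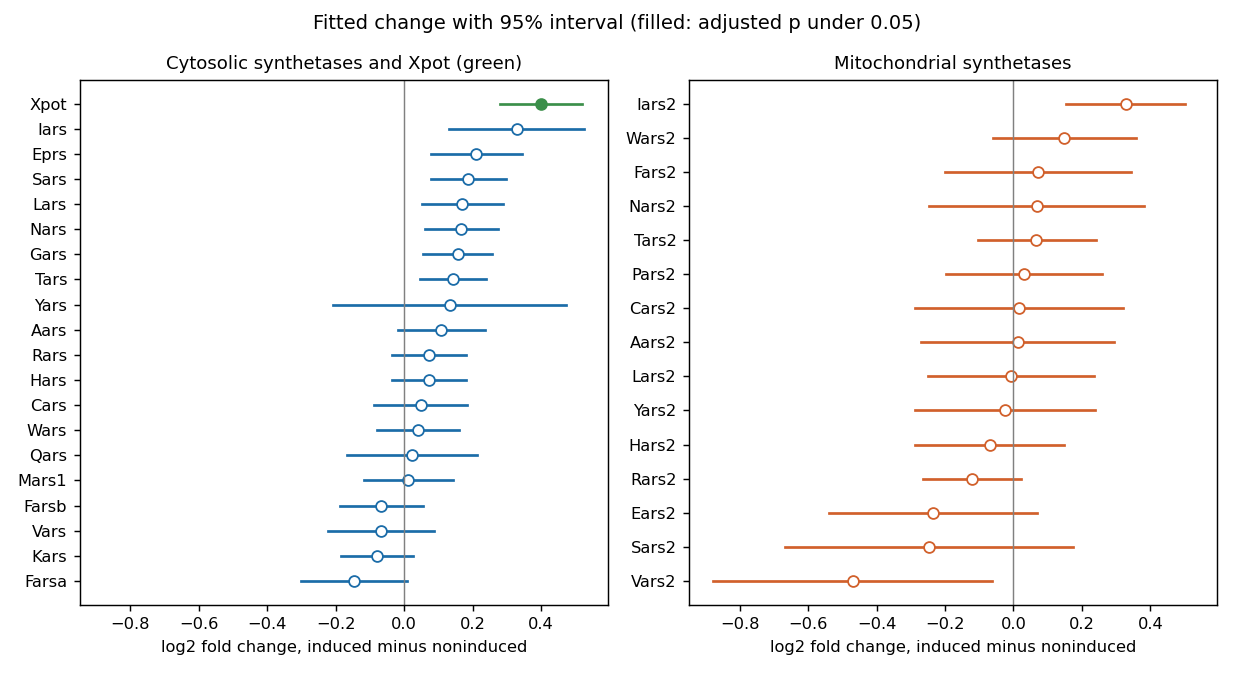
Log2 fold change of each tested member, arrays labelled induced minus noninduced (x axis), with its 95% interval; genes run down the page, cytosolic enzymes and Xpot (green) left, mitochondrial enzymes right, 3 arrays a group. Xpot at 0.40 is the single filled point (adjusted p under 0.05); cytosolic points lie between -0.15 and 0.33 and mitochondrial ones between -0.47 and 0.33.

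Of the 15 positive cytosolic genes, 12 are described in other cells as ATF4 targets. That group (Aars, Cars, Eprs, Gars, Iars, Lars, Mars1, Nars, Sars, Tars, Wars and Yars, listed from general knowledge with earlier results of these data in view) had 12 of 12 log2 fold changes above 0, with a median of 0.15; over the alternatives 11 or 12 were positive, and Mars1 was at -0.001 after quantile normalization. It held all 8 of the cytosolic genes with wholly higher arrays and all 7 with an unadjusted p under 0.01. The other 7 cytosolic enzymes (Farsa, Farsb, Hars, Kars, Qars, Rars and Vars) had a median of -0.07, with 3 positive and 4 negative, but that median was 0.03 with 6 positive after median centring and 0.06 with 5 positive when the probe sets of each gene were averaged. None of the 19 passed the adjusted test, so these counts describe the list and do not rest on called genes. The 12 had a median of 0.16 in induced replicate 1 alone, within the first fluidics run, with 11 of 12 positive.

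Iars, the isoleucyl enzyme, had the largest cytosolic difference. Its brightest probe set, 1426705_s_at, gave 1124, 1182 and 1067 on the arrays labelled induced, against 976, 749 and 968 on the noninduced arrays. The ending _s_at marks a probe set that can also detect other transcripts. The groups did not overlap, and noninduced replicate 2 lay far below the other two. The log2 fold change was 0.33 (95% interval 0.13 to 0.53, limma adjusted p = 0.144), and it was 0.21 without noninduced replicate 2. The other Iars probe set, 1452154_at, with 953, 896 and 1003 against 745, 1054 and 905 on the noninduced arrays, overlapped between the groups and gave 0.09.

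Eprs encodes the fused enzyme that charges both glutamic acid and proline tRNAs. Its signal was 1101, 1084 and 1143 on the arrays labelled induced, against 906, 1033 and 933 on the noninduced arrays (log2 0.21, limma adjusted p = 0.157). The next brightest Eprs probe set gave 879, 948 and 859, against 763, 568 and 758 on the noninduced arrays, and a log2 fold change of 0.37 (limma adjusted p = 0.136). The one after it gave 0.29 (limma adjusted p = 0.127). For all 3 of these probe sets every array labelled induced was above every noninduced one. The 4th tested Eprs probe set, 1430370_at, was much dimmer, overlapped between the groups and gave 0.11 (limma adjusted p = 0.888).

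Sars, the seryl enzyme, had the lowest adjusted p of any synthetase probe set, in its dimmer one. That probe set, 1452000_s_at, gave 2066, 2274 and 2333 on the arrays labelled induced, against 1868, 1815 and 1870 on the noninduced arrays. Its log2 fold change was 0.26 (95% interval 0.14 to 0.38, limma adjusted p = 0.0756). The brightest Sars probe set gave 2880, 2708 and 2974, against 2437, 2621 and 2453 on the noninduced arrays, or 0.19 (limma adjusted p = 0.137). Both Sars probe sets, and the further ones of Iars, Eprs and Aars, are given after their values were seen. Neither Sars probe set overlapped between the groups.

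Gars, the glycyl enzyme of both compartments, showed small spread within groups. It gave 1685, 1683 and 1623 on the arrays labelled induced, against 1490, 1495 and 1485 on the noninduced arrays, a log2 fold change of 0.16 (limma adjusted p = 0.163). Nars, the asparaginyl enzyme, gave 3093, 2868 and 2885, against 2612, 2540 and 2718 on the noninduced arrays, or 0.17. Lars, the leucyl enzyme, gave 1516, 1591 and 1587, against 1365, 1327 and 1478 on the noninduced arrays, also 0.17. Tars, the threonyl enzyme, gave 2145, 2114 and 2147, against 1883, 1960 and 1958 on the noninduced arrays, or 0.14. In these 4 genes the groups did not overlap, the difference was 1.103-fold to 1.125-fold, and none passed the adjusted test.

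**Figure D2:**
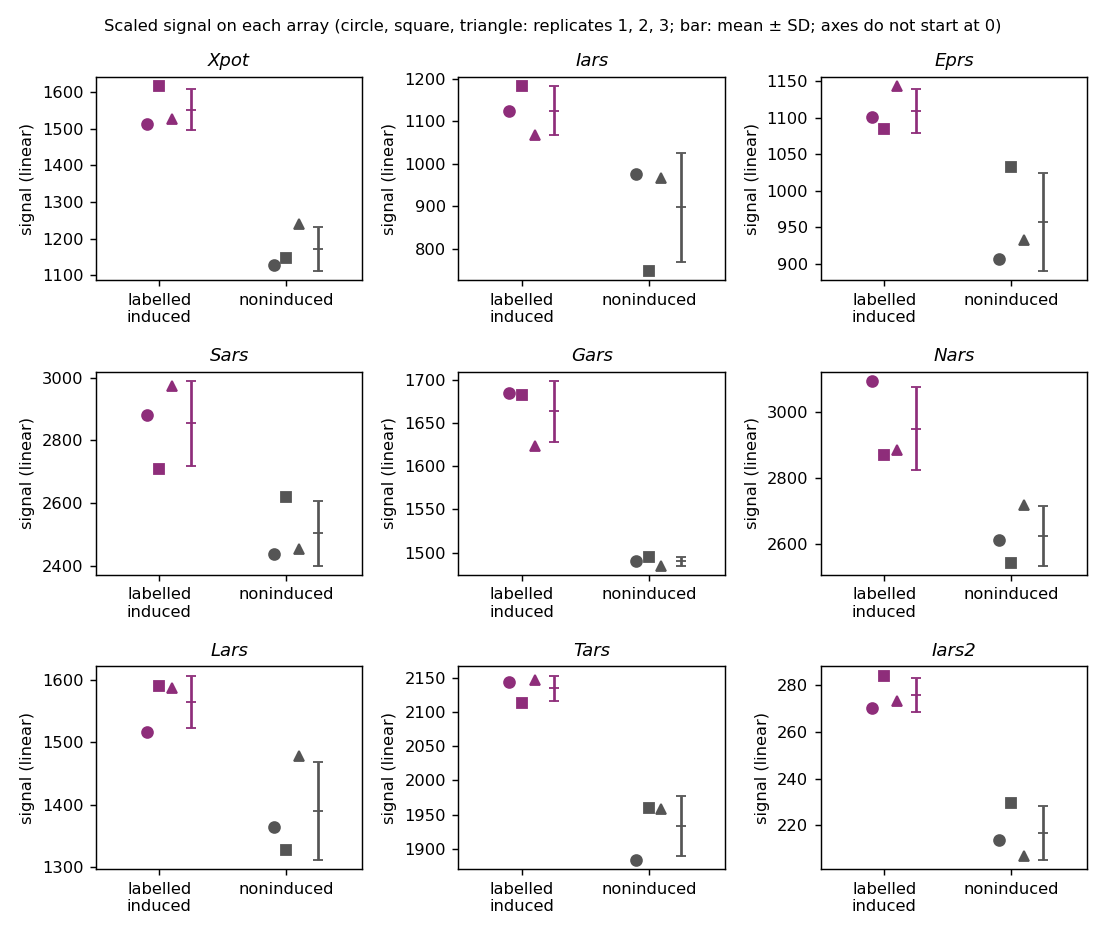
Scaled linear signal (y axis) on each of the 3 arrays labelled induced (left) and 3 noninduced arrays (right) for Xpot, 7 cytosolic synthetases and the mitochondrial Iars2; bars are mean ± SD, and axes do not start at 0. In all 9 panels the groups do not overlap, and noninduced replicate 2 (square) is the low point for Iars at 749.

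The remaining members of the ATF4 group were closer to 0. Aars, the alanyl enzyme, was at 0.11 with its brightest probe set, whose groups overlapped, while 1451083_s_at gave 1167, 1342 and 1220 on the arrays labelled induced, against 1012, 1033 and 1106 on the noninduced arrays (log2 0.24, limma adjusted p = 0.133). Yars, the tyrosyl enzyme, had the largest standard error of the cytosolic genes (0.156), with signals of 493, 327 and 557 on the arrays labelled induced, against 353, 423 and 451 on the noninduced arrays, and a log2 fold change of 0.13. Leaving out induced replicate 3 gave -0.02 for Yars, and leaving out induced replicate 2 gave 0.35. Cars, the cysteinyl enzyme, was at 0.05. Wars, the tryptophanyl enzyme, was at 0.04 with its brightest probe set; 779, 742 and 747 stood against 732, 740 and 730 on the noninduced arrays, so the groups did not overlap although the difference was 1.03-fold. Its other probe sets ran from -0.12 to 0.23. Mars1, the methionyl enzyme, was at 0.01.

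Of the 7 cytosolic enzymes outside that group, Farsa and Kars had all arrays labelled induced below all noninduced arrays. Farsa, the alpha subunit of the phenylalanyl enzyme, gave 348, 336 and 364, against 387, 408 and 370 on the noninduced arrays (log2 -0.15, 95% interval -0.30 to 0.01), but its 2 dimmer tested probe sets were at 0.03 and 0.31 with overlapping groups. Kars, the lysyl enzyme of both compartments, gave 1248, 1260 and 1302, against 1347, 1329 and 1350 on the noninduced arrays (log2 -0.08, and 0.01 after centring each array on its median). Farsb, the beta subunit that works with Farsa, was at -0.07 and Vars, the valyl enzyme, also at -0.07; both were at 0.03 after median centring, and the other Farsb probe sets were at 0.01 to 0.04. Hars and Rars, the histidyl and arginyl enzymes, were both at 0.07. Qars, the glutaminyl enzyme, was at 0.02, where induced replicate 1 (1203) stood apart from induced replicates 2 and 3 (932 and 935), and without it the value was -0.10. The other tested Qars probe sets were at 0.14 and 0.16, with overlapping groups.

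In the RefSeq promoter table (GRCm38.p6), which runs from 250 bases before to 50 after an annotated start, 27 of the 36 members had an entry. The letters TGATGNAA, the core of the C/EBP-ATF response element, were searched on both strands. They occurred in 5 of the 12 cytosolic promoters, 0 of the 14 mitochondrial ones and not in that of Xpot, and in 3.97% of all 32851 promoters. All 5 (Aars, Gars, Iars, Tars and Yars) were among the 8 ATF4-group genes with an entry, and 0 of the other 4 cytosolic promoters matched. That group was listed as described ATF4 targets, so this split is partly fixed by the choice of genes and is no independent support for the grouping. The core of the NRF1 site, GCGCANGCG, which does not overlap the first motif, was found in 3 of the 12 cytosolic and 4 of the 14 mitochondrial promoters, and in 6.25% of all promoters. NRF1 is a transcription factor of nuclear genes for mitochondrial proteins. A match is a stretch of letters, not a shown binding site.

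The 5 promoters with the C/EBP-ATF letters are shown because their genes belong to the group with the higher medians, followed by Xpot, which rose, and Iars2, the mitochondrial enzyme with the largest positive difference. Each is given 5′ to 3′ on the gene's strand, from 120 bases before to 19 after the annotated start; capitals mark matches to either motif. The windows are chr8:111033722-111033861 (+) for Aars, chr6:55037881-55038020 (+) for Gars, chr13:49682010-49682149 (+) for Iars, chr15:11399639-11399778 (-) for Tars, chr4:129189783-129189922 (+) for Yars, chr10:121626313-121626452 (-) for Xpot and chr1:185329382-185329521 (-) for Iars2, all of GRCm38.p6.
Aars: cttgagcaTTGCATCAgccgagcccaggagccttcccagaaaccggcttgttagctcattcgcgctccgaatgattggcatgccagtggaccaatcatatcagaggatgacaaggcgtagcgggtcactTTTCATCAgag
Gars: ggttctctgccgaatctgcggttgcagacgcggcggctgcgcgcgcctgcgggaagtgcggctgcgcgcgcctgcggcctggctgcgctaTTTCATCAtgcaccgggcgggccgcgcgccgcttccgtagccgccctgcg
Iars: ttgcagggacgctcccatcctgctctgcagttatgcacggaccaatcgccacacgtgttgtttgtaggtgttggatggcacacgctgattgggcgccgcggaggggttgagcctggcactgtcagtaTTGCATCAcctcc
Tars: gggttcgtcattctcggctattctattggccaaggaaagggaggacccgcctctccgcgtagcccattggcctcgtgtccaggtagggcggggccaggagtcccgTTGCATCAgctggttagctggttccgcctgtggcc
Yars: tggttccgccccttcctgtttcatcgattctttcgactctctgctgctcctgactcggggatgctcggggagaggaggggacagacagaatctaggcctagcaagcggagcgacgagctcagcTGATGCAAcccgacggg
Xpot: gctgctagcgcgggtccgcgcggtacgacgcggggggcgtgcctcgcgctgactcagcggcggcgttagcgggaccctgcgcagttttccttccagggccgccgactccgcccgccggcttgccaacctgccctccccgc
Iars2: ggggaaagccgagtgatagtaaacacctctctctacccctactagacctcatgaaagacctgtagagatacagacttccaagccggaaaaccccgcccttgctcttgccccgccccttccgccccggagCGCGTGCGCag

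In these windows the C/EBP-ATF letters began 3 bases after the start in Yars, 7 after it in Iars, 15 before it in Tars and 30 before it in Gars. Aars had 1 match 112 bases before and 1 match 9 bases after its start. Among these 5 genes the log2 fold changes were 0.33 for Iars, 0.16 for Gars, 0.14 for Tars, 0.13 for Yars and 0.11 for Aars. Xpot at 0.40 had no such letters in its promoter window. No match was found for Eprs at 0.21 or Sars at 0.19, and members without a promoter entry could not be searched. In Iars2 the capitals are the NRF1 letters, 9 bases after the start.

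**Figure D3:**
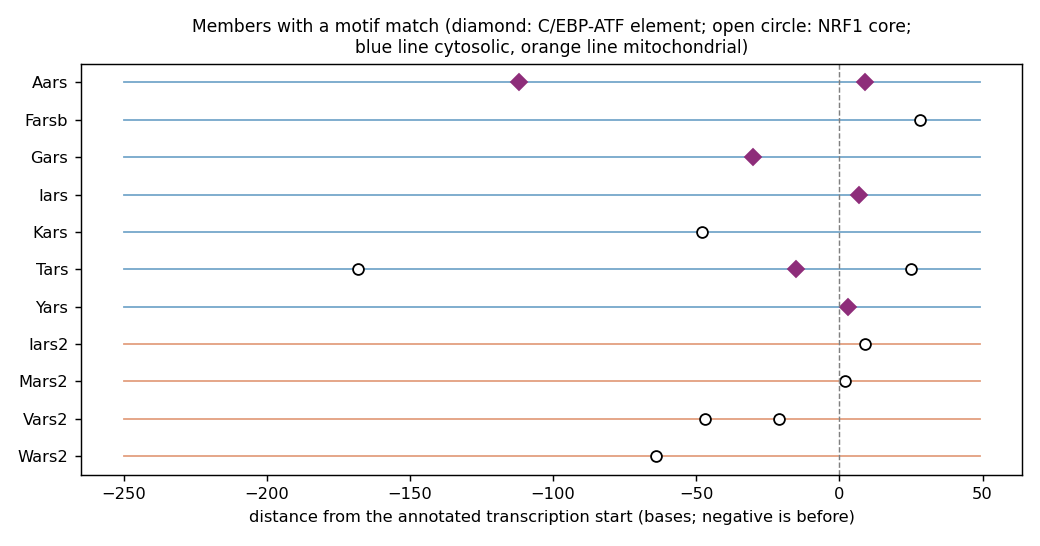
First base of each motif match (x axis, bases from the annotated start) in the promoters of the 11 members with a match; diamonds are the C/EBP-ATF letters and open circles the NRF1 core, with cytosolic genes on blue and mitochondrial genes on orange lines. Diamonds occur on cytosolic lines alone, 4 of the 6 within 15 bases of the start.

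Iars2 had the largest positive difference of the mitochondrial enzymes and the lowest adjusted p of all synthetases by brightest probe set. It gave 270, 284 and 273 on the arrays labelled induced, against 214, 230 and 207 on the noninduced arrays, without overlap. The means were 276 ± 7.39 on the arrays labelled induced and 217 ± 11.7 on the noninduced arrays (SD, n = 3 each), and the log2 fold change was 0.33 (95% interval 0.15 to 0.50, limma adjusted p = 0.111). It lay between 0.30 and 0.37 when any 1 array was left out. A dimmer probe set of Iars2 overlapped between the groups and gave 0.13. Iars and Iars2, which charge isoleucine tRNAs in the 2 compartments, therefore had the same log2 fold change by brightest probe set. The other Iars probe set gave 0.09.

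The other mitochondrial enzymes lay on both sides of 0. Wars2, for tryptophan, gave 137, 144 and 138 on the arrays labelled induced, against 129.8, 120 and 123 on the noninduced arrays, without overlap (log2 0.15). Rars2, for arginine, gave 364, 377 and 384, against 405, 411 and 412 on the noninduced arrays, with every array labelled induced lower (log2 -0.12, 95% interval -0.27 to 0.02). Ears2, for glutamic acid, gave 58.7, 66.4 and 49.8, against 73.6, 72.3 and 67.5 on the noninduced arrays, also without overlap (log2 -0.24). Vars2, for valine, gave 50.8, 39.3 and 61.4, against 57.9, 99.4 and 73.2 on the noninduced arrays; the groups overlapped, and the log2 fold change was -0.47 with an interval of -0.88 to -0.06 (limma adjusted p = 0.279). It was -0.30 without noninduced replicate 2.

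Sars2, for serine, was at -0.25, with 72.0, 46.7 and 35.4 on the arrays labelled induced and 70.3, 58.1 and 58.2 on the noninduced arrays, and its sign turned to 0.17 in induced replicate 1 alone. The remaining 9 tested mitochondrial genes were between -0.07 and 0.07: Hars2 at -0.07, Yars2 at -0.03, Lars2 at -0.01, Aars2 at 0.01, Cars2 at 0.02, Pars2 at 0.03 and Fars2, Nars2 and Tars2 at 0.07. Of these, Hars2, Yars2 and Lars2 were positive after median centring, at 0.02, 0.07 and 0.09. The dimmer probe sets of Hars2, Lars2, Tars2 and Yars2 had the opposite sign to the brightest, at 0.07, 0.04, -0.04 and 0.01. Mars2, for methionine, had signals of 33.8, 28.2 and 16.2 on the arrays labelled induced and 22.8, 11.5 and 14.5 on the noninduced arrays, on average below the filter of 23.4, and was not tested. The standard errors were 0.066 to 0.193 for the mitochondrial genes and 0.045 to 0.156 for the cytosolic ones.

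Enzymes for the same amino acid were set side by side in 16 pairs of a cytosolic and a mitochondrial gene, with Farsa and Farsb both paired to Fars2, and Eprs to both Ears2 and Pars2. The cytosolic log2 fold change was the larger in 13 pairs and the mitochondrial one in 3 (Farsa, Farsb and Wars), with a median difference of 0.12. The widest gaps were Eprs over Ears2 (0.45), Sars over Sars2 (0.44) and Vars over Vars2 (0.40), and the narrowest was Iars over Iars2 (0.00). Pairs share arrays and in part a gene, so no test was made of this count.

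The 2 classes were also followed array by array, as the median over genes of the log2 difference from each gene's noninduced mean. The cytosolic median was 0.08, 0.09 and 0.09 on the arrays labelled induced, against -0.01, -0.01 and 0.04 on the noninduced arrays, and these did not overlap. The mitochondrial median was -0.01, -0.05 and 0.07 on the arrays labelled induced, against -0.01, 0.01 and -0.02 on the noninduced arrays, which overlapped. The cytosolic minus the mitochondrial median was 0.10, 0.14 and 0.02, against -0.003, -0.02 and 0.06 on the noninduced arrays, and these overlapped. So the class difference did not separate the groups array by array. The 12 genes of the ATF4 group had medians of 0.16, 0.13 and 0.14, against -0.02, -0.005 and 0.04 on the noninduced arrays. The other 7 cytosolic genes had -0.03, -0.10 and -0.04, against -0.01, -0.01 and 0.04 on the noninduced arrays.

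**Figure D4:**
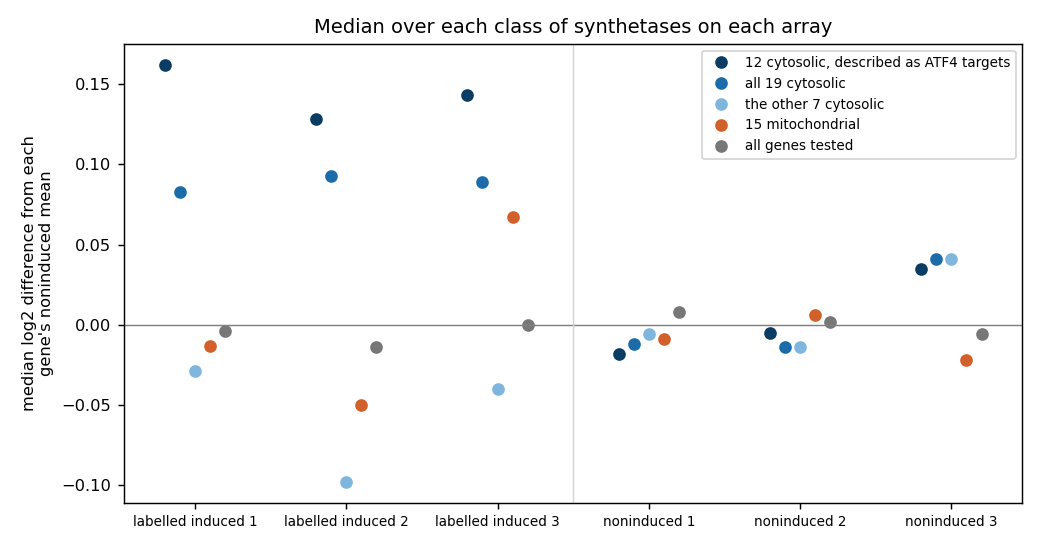
Median over the genes of each class of the log2 difference from the gene's noninduced mean (y axis) on each array, those labelled induced left and noninduced right. The 12 ATF4-group genes sit at 0.13 to 0.16 on the arrays labelled induced and at -0.02 to 0.04 on the noninduced arrays, while those of the 15 mitochondrial genes run from -0.05 to 0.07 on the arrays labelled induced and from -0.02 to 0.01 on the noninduced arrays.

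Counting every tested probe set in place of the brightest, 32 of 37 cytosolic ones were positive with a median of 0.10, and 14 of 23 mitochondrial ones with a median of 0.015. For 13 of the 37 all arrays labelled induced lay above all noninduced arrays and for 2 below; for the 23 mitochondrial ones the counts were 2 and 2. Across the array, 9.65% of probe sets lay wholly above and 10.6% wholly below. Of 10 cytosolic genes with several tested probe sets, 7 had all of them positive and 3 had both signs (Farsa, Farsb and Wars). Of 8 such mitochondrial genes, 3 had all positive (Cars2, Iars2 and Wars2), 1 all negative (Vars2) and 4 both signs. Names ending in _s_at and _x_at mark probe sets that can also detect other transcripts.

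**Figure D5:**
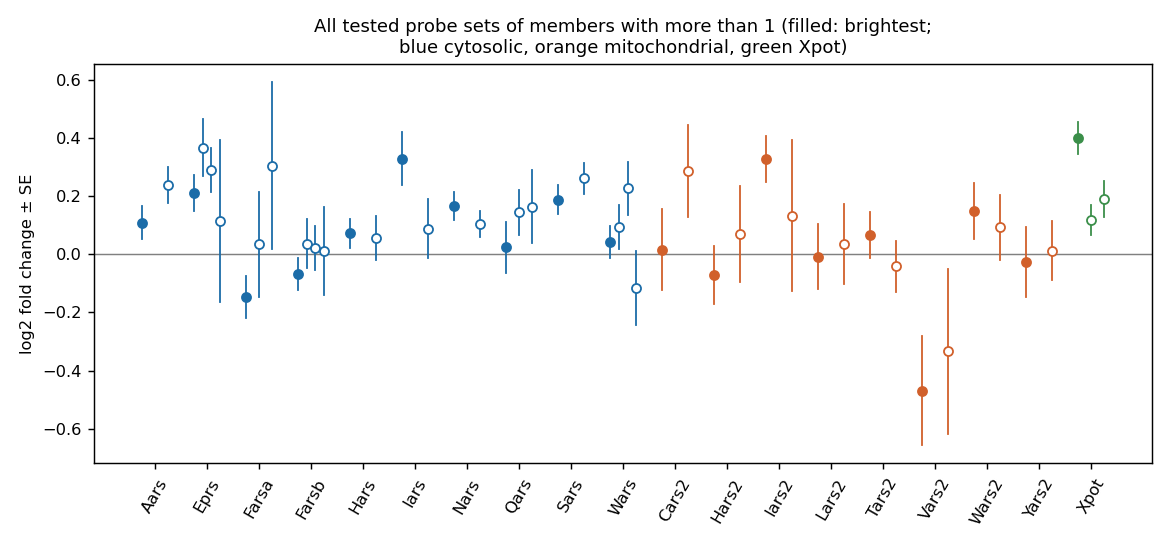
Log2 fold change ± SE (y axis) of every tested probe set of the 19 members with more than 1, cytosolic in blue, mitochondrial in orange and Xpot in green; filled points are the brightest probe set. The 3 brightest Eprs probe sets lie at 0.21 to 0.37, while those of Wars run from -0.12 to 0.23.

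The 7 tested synthetases of the multisynthetase complex (Eprs, Iars, Kars, Lars, Mars1, Qars and Rars) had a median of 0.07, equal to that of all cytosolic enzymes, and 6 were positive. Of the scaffold proteins, Aimp2 gave 1228, 1336 and 1256 on the arrays labelled induced, against 1427, 1525 and 1478 on the noninduced arrays, all lower (log2 -0.21, 95% interval -0.33 to -0.10, limma adjusted p = 0.119). Aimp1 was at 0.09 and Eef1e1 at 0.13, with overlapping groups. The 2 structural classes of synthetases, which have unrelated catalytic folds, had medians of 0.03 for 18 class I genes, with 12 positive, and 0.07 for 16 class II genes, with 11 positive.

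Other genes of tRNA supply showed no member past the adjusted test in limma. Of all genes 0.195% passed it as higher and 0.111% as lower, so this absence lies near the background. The counts given for each list at an unadjusted p under 0.05, higher and then lower, stand against 7.96% and 7.99% of all genes. Of 9 tested factors of charging and proofreading (median -0.01, 1 higher and 0 lower at an unadjusted p under 0.05), Gatc, a subunit of the mitochondrial glutaminyl-tRNA amidotransferase, was at 0.27, Mtfmt, the mitochondrial methionyl-tRNA formyltransferase, at 0.23, Sepsecs, which makes selenocysteinyl-tRNA, at -0.19 and Aarsd1 at -0.01. Of 17 genes of tRNA transport and end processing (median 0.08, 2 and 2), Trnt1, which adds the CCA end, was at 0.26, the RNase P subunit gene Rpp30 at -0.20 and the exportin Xpo5 at -0.18. Of 25 tRNA modification genes (median 0.00, 2 and 4), Trmt61a, part of a tRNA methyltransferase, was at -0.54, Cdkal1 at 0.34, Trmt5 at -0.30 and Nsun2 at 0.04. Of 20 genes of RNA polymerase III, which transcribes tRNA genes (median 0.06, 1 and 2), the subunit genes Polr3d and Polr3f were at -0.30 and 0.24, the initiation factor Gtf3c3 at 0.22 and Maf1, a repressor of the enzyme, at -0.20.

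A list of 11 genes held Atf4, well-known targets of ATF4 and Eif2ak4, which encodes a kinase upstream of ATF4. In limma 2 rose past the adjusted test, the stress factor Ddit3 (0.57) and the glutathione-degrading enzyme Chac1 (0.62), and none fell. Of all genes, 0.195% passed as higher and 0.111% as lower. The list median was 0.31, the value of Eif2ak4. Atf4 itself was at 0.09 (limma adjusted p = 0.383) with overlapping groups, and Psat1 was the 1 negative gene, at -0.05. Trib3 was at 0.70 with its brightest probe set (limma adjusted p = 0.0553) and Phgdh at 0.08. The markers of differentiated muscle, adipocytes, macrophages and endothelial cells had 2 of 6, 1 of 3, 3 of 4 and 1 of 4 genes above the filter, and none passed the test. Adipoq, Ptprc and Pecam1 were below the filter. Cebpa of the adipocyte list, Kdr of the endothelial list and the macrophage markers Adgre1, Cd68 and Csf1r lay above it. Cd68 and Kdr were close to the filter of 23.4, with means of 23.7 and 27.0 on the arrays labelled induced. On the noninduced arrays their means were 24.0 and 23.0. The filter kept 10775 of 18193 genes, so passing it says little about cell type. Of the 5 myoblast markers tested, 2 were positive, Myf5 at 0.12 and Des at 0.07, and 3 negative, Myod1 at -0.17, Chrna1 at -0.12 and Cdh15 at -0.12. Myod1 and Chrna1 (limma adjusted p = 0.261 and 0.227) had wholly lower arrays in the group labelled induced, as did 11.6% of all genes. The part of such differences in the synthetase values was not tested.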

How the data were processed

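Total RNA of 6 samples was hybridised to 1 Affymetrix Mouse430_2 array each, per the file headers. The authors deposited a linear signal intensity for every probe set. The submitters' processing notes name GCOS 1.1.1, with no algorithm settings. Each array had the same 2% trimmed mean, 150, so values are relative to their array and a shift shared by most transcripts is not visible. The deposited instrument records (unit other) hold no expression values. Their hybridisation times were used to infer the fluidics run, which the labels do not name. Samples were grouped by title, 3 in each group, and this small number of arrays limits precision.

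The 64 control probe sets were left out of 45101. The platform annotation gave exactly 1 gene for 34945 of the rest, more than 1 for 932 and none for 9160. Signals were taken to log2(value + 16), which understates changes at low signal. The filter kept the 22518 probe sets whose mean linear signal exceeded 23.4, the median of such means. They were tested with limma 3.58.1 in R 4.3.3 (eBayes with a variance trend, Benjamini-Hochberg over all probe sets, threshold 0.05). Lists are described by counts and medians, with no test. The steps were tested on simulated data.

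The members and lists were chosen with earlier results of these data known. All members are named; in the other lists the genes named are those past the threshold, then those with the largest differences, and the brightest. Aimp1, Aimp2 and Eef1e1 are a whole list, and Atf4, Psat1, Eif2ak4 and cell type markers are named besides. Sequences and motif windows are RefSeq's (GRCm38.p6).

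Alternatives were quantile normalization, median centring, other filters and pseudocounts, no variance trend, robust moderation, blocking on the replicate number or on the fluidics run, the first fluidics run alone, leaving out each array, and averaging the probe sets of each gene.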

Additional observations from a re-analysis of the deposited data

How the results depend on the processing

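Under 18 alternatives Xpot kept its direction (log2 0.24 to 0.49) and passed the adjusted test in 9, with an adjusted p of 0.00819 to 0.323. The number of probe sets past the threshold, 45 with 27 higher and 18 lower (60% higher), became 306 after median centring (294 higher, 96.1%), 1 without a filter, 102 with a filter at the 75th percentile, 0 without a variance trend, 74 with robust moderation, and 0 when the fluidics run was blocked or the first run was taken alone. At an unadjusted p under 0.05, limma gave 3306 probe sets, against 2817 without a variance trend, 1923 with the run blocked and 1976 in the first run. The count past the threshold ran from 0 (without induced replicate 1; 2597 at an unadjusted p under 0.05) to 50 when 1 array was left out, and was 1, 8 and 11 without noninduced replicate 2, noninduced replicate 3 and induced replicate 2. The number of members past it, 1, became 5 after median centring (Eprs, Nars, Sars and Iars2 with Xpot) and 0 without a filter, without a variance trend, with the run blocked, in the first run or with probe sets averaged per gene, and was 0 or 1 when 1 array was left out. The replicate numbers did not pair the arrays (correlations of deviations 0.001, -0.077 and -0.039 for replicates 1, 2 and 3, and no array correlated best with its own number); with the replicate block 5 probe sets and 0 members passed (Xpot adjusted p = 0.0711 in limma). The first fluidics run holds 1 array labelled induced, which is assumed to vary like the noninduced ones.

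The median of all genes moved from -0.01 to 0.08 under median centring, where the cytosolic median was 0.165 and the mitochondrial one 0.105. Averaging probe sets per gene gave a cytosolic median of 0.11. Leaving out 1 array gave 0.052 to 0.112 for the cytosolic median, -0.062 to 0.042 for the mitochondrial one (the lowest without noninduced replicate 2) and 0.01 to 0.128 for their difference. The median of the 12 ATF4-group genes ran from 0.14 to 0.24 and that of the other 7 from -0.08 to 0.06, above 0 after median centring and with probe sets averaged per gene.

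Signs turned for 17 of the 35 members in at least 1 alternative, each of them not past the test. Mars1 was at -0.001 after quantile normalization. After median centring Farsb was at 0.027, Kars at 0.014, Vars at 0.025, Hars2 at 0.024, Lars2 at 0.085 and Yars2 at 0.068. With the run blocked, and in the first run alone, Cars was at -0.038, Aars2 at -0.029, Nars2 at -0.238 and Sars2 at 0.174. With the mean of probe sets Farsa was at 0.064, Farsb at 0, Hars2 at 0 and Lars2 at 0.014. Leaving out 1 array gave -0.037 to 0.067 for Mars1, -0.096 to 0.085 for Qars, -0.019 to 0.352 for Yars, -0.095 to 0.116 for Aars2, -0.085 to 0.102 for Cars2, -0.044 to 0.132 for Fars2, -0.102 to 0.097 for Lars2, -0.026 to 0.221 for Nars2, -0.011 to 0.091 for Pars2 and -0.144 to 0.099 for Yars2. The causes were not tested.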
